A study of Mus musculus with 2 samples.

Results

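The genes of the cytosolic ribosome were followed in bone marrow LSKs (lineage-negative, Sca1-positive, c-Kit-positive cells, the compartment that holds hematopoietic stem and progenitor cells) of Scl/tTA-BCR/ABL mice on the C57BL/6 strain. The members are the rows of the gene tables named as cytosolic ribosomal proteins, that is Rpl or Rps with a number, Rpsa, Rplp0, Rplp1 and Rplp2. Rows named as pseudogenes (-ps) were left out. This gave 84 of 34745 genes, chosen by name and not by any measured value.

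Both groups carry the same alleles. The transactivator is driven by Scl regulatory sequence and switches on BCR/ABL (BA) in such cells when doxycycline is taken out of the drinking water. The week-0 library, called control in the labels, was made before BA was induced, and the week-3 library 3 weeks after induction. Each library was made from LSKs of 3 mice mixed together, so there is 1 library per time point, the spread between mice is unknown, and no p-value is given anywhere. The animals' age is not given in the sources used here. Every value below is therefore the value in a single library, and each 95% confidence interval (exact Clopper-Pearson) covers no more than counting error, because amplified cDNA was sequenced without molecular identifiers and its reads are not independent molecules. The libraries held 6356164 reads on genes at week-0 and 3886695 at week-3.

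A ribosome is built from a small (40S) and a large (60S) subunit, each an RNA scaffold covered by ribosomal proteins that are needed in nearly equal numbers of copies. The mRNAs of these proteins are among the most abundant of any dividing cell, and most begin with a short run of pyrimidines, the 5' terminal oligopyrimidine (TOP) element, through which mTOR signalling controls their translation. Loss of 1 copy of single members causes Diamond-Blackfan anaemia in humans, in which red cell precursors fail, and free large subunit proteins can bind and hold Mdm2, the ligase that degrades p53. The libraries measure mRNA and neither the proteins nor their translation.

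The sequences that bear most directly on the results are those of Rps27 and its paralog Rps27l, since these genes encode near-identical proteins of the small subunit and their mRNAs differed in opposite directions between the libraries. The coding sequences below are those of GENCODE M21 on GRCm38, with capitals where the aligned bases differ. Rps27 (ENSMUSG00000090733) lies on the minus strand of chromosome 3 from 90212522 to 90213651, and Rps27l (ENSMUSG00000036781) on the plus strand of chromosome 9 from 66946086 to 66949516.
Rps27: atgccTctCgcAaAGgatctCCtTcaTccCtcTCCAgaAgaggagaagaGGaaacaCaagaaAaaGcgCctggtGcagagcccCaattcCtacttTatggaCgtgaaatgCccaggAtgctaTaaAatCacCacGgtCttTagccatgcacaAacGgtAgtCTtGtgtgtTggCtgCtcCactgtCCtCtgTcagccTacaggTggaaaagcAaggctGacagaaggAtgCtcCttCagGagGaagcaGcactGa
Rps27l: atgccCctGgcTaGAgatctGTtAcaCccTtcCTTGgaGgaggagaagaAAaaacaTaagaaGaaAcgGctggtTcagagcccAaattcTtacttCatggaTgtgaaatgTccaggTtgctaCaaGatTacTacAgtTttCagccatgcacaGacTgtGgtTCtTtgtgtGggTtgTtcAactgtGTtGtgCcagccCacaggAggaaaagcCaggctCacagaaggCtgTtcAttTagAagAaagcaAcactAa

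Of 255 aligned bases, 194 were identical (76.1%) and 61 differed, with no gap. The differences lay in 54 of 85 codons, and 53 of them were at the third base of a codon. The differences are spread over the coding sequence, while Rps27 also has a row identical to it over the whole coding sequence (Rps27rt), whose reads are given with the other copies.

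Start sites are shown for 4 members at each end of the order of changes, out of those that have an entry in the RefSeq promoter table (GRCm38.p6). Each window runs from 30 bases before to 15 bases after the annotated start, 5' to 3' on the sense strand. Capitals mark the longest run (the first of equals) of pyrimidines (C or T) that reaches within 20 bases of the start, where it has at least 8 bases, as far as it falls in the window. Other runs, such as those of 9 bases in the windows of Rps27l and Rps15a, stay in lower case.
Rps12, minus strand, chr10:23787195-23787239: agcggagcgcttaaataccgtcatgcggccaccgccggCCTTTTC
Rps21, plus strand, chr2:180257349-180257393: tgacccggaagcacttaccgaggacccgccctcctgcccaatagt
Rps27l, plus strand, chr9:66946056-66946100: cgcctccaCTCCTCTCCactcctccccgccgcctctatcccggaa
Rpsa, plus strand, chr9:120127736-120127780: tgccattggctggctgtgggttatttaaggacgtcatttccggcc
Rps27, minus strand, chr3:90213634-90213678: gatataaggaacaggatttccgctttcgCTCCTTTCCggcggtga
Rpl22l1, plus strand, chr3:28805478-28805522: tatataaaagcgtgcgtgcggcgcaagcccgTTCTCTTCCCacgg
Rpl37, plus strand, chr15:5116583-5116627: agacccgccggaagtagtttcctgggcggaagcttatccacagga
Rps15a, minus strand, chr7:118116133-118116177: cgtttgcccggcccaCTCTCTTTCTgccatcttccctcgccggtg

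A pyrimidine run by this rule was found for Rps12 and Rps27l among the members with the largest change. It was also found for Rps27, Rpl22l1 and Rps15a among those with the smallest, but not for Rps21, Rpsa or Rpl37. The run of Rps12 began 8 bases after the annotated start and that of Rps27l 22 bases before it. Rps21 had a run of 7 bases that began 2 bases before its start, which is under the 8 needed. A run by this rule is therefore not the same as a TOP element, and TOP elements were not called here. Over all members with an entry and at least 100 reads, the median log2 change was 0.05 for the 29 with a run and 0.01 for the 30 without it. Of the members with a run, 5 had a ratio of at least 1.5 and 1 a ratio of at most 1/1.5, and of those without it 3 and 0 did. Over all genes with at least 100 reads, 21.8% had a ratio of at least 1.5 and 20% of at most 1/1.5.

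Windows of 300 bases (250 before to 50 after the start) were at hand for 63 of 84 members (75%), under the 80% needed for a check over the list. A comparison of the members' promoters with all promoters is therefore void, and the shares are given only as a description of 75 windows of these 63 genes beside 32851 windows of all genes. A pyrimidine run by the rule above was in 46.7% of the members' windows and in 21% of all windows. On both strands, CGGAAG, the core that ETS family factors bind, was in 60.0% and 16.9%, GGGCGG (the GC box) in 60.0% and 35.7%, and CACGTG (the E box that Myc binds) in 10.7% and 7.15%. AAGATGGC was in 10.7% and 2.75%, and TATAAA in 9.33% and 13.6%. In 75 windows of mitochondrial ribosomal protein genes, CGGAAG was in 53.3%, GGGCGG in 52%, AAGATGGC in 16%, CACGTG in 9.33%, TATAAA in 6.67% and a pyrimidine run in 22.7%. None of these motifs holds another whole, and a match is a stretch of letters, not a site.

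The genes that mark cell types differed between the libraries. Of 8 LSK markers, 7 had at least 100 reads and 5 of these had a ratio of at most 1/1.5, and the summed list went from 2249 to 964 reads in 1000000. Granulocyte markers, several of which myeloid progenitors also express, went from 3491 to 16413 with 9 of 9 at a ratio of at least 1.5, and mast cell markers from 141 to 3864 with 6 of 6 that passed the read limit of 8 measured. The mast cell genes Tpsb2 and Mcpt4 were at 0 at week-0. B and plasma cell markers went from 911 to 82.1, with 3 of 4 that passed the limit at a ratio of at most 1/1.5, and erythroid markers from 1413 to 92.4, with 4 of 4. T cell markers had 44 and 9 reads in all, with Cd3e and Cd8a at 0 at week-3. In a bulk library, fewer cells of a type and less RNA per cell cannot be told apart, and the part of such cells in the values of the ribosomal protein genes was not tested.

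As a whole, the members took nearly the same part of the library at both time points. They held 541122 of the reads at week-0, which is 8.51% (interval 8.49 to 8.54), and 328167 at week-3, which is 8.44% (interval 8.42 to 8.47). The ratio of these shares was 0.992 (0.987 to 0.996). With the mitochondrial genome left out of the total, the shares were 8.62% and 8.63%. Of the 100 genes with the most reads, 28 were members at week-0 and 30 at week-3.

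The change of a gene is the log2 of its FPKM (fragments per kilobase of exon and 1000000 reads, as the authors deposited it) at week-3 over that at week-0, and only genes with at least 100 reads over both libraries are counted. The median log2 change of the 80 members that passed this limit was 0.01, with a middle range (25th to 75th percentile) from -0.20 to 0.31. Over all 8832 genes that passed, the median was 0.10 and this range ran from -0.42 to 0.53, leaving out 15 genes without reads in 1 library. The median of members was thus lower than that of all genes by 0.09, a distance that no scaling of the libraries alters. TMM scaling lowers every log2 change by 0.11, to a median of -0.10 for members and -0.01 for all genes. The SD of the log2 changes was 0.37 over members and 0.97 over all genes.

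A ratio of at least 1.5 was reached by 9 of 80 members (11.3%), against 21.8% of all genes. A ratio of at most 1/1.5 was reached by 1 of 80 members, against 20% of all genes. The members higher at week-3 were Rps12, Rps21, Rps27l, Rpsa, Rplp2, Rpl5, Rps25, Rps27a and Rpl12, and the member lower was Rps27. The members' share was below the background in both directions. With TMM scaling the split was 6 higher and 4 lower (Rps27, Rpl22l1, Rpl37 and Rps15a), with Rps25, Rps27a and Rpl12 no longer past the limit, against 16.7% and 23.4% of all genes. The same 3 genes fell short of the limit with median-of-ratios scaling, and the intervals of their ratios cross 1.5 (1.48 to 1.64 for Rps25, 1.45 to 1.597 for Rps27a and 1.43 to 1.61 for Rpl12).

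With a median of 4967 reads per member at week-0 and 3339 at week-3 (79 members), smaller differences were also larger than the counting error. The interval of the ratio lay above 1 for 37 members, against a background of 39.3% of all genes, and below 1 for 37 members, against 29.8%. It held 1 for 6 members. With TMM scaling these numbers were 30 above, 43 below and 7 holding 1, against 32.6% above and 34.5% below among all genes. Since counting error falls with depth, the members are better set beside genes with at least 1000 reads. Of 1952 such genes, 49.1% lay above 1 and 35.5% below, and of the 77 members among them 45.5% and 48.1% did. Most of these genes, members or not, thus differed between the libraries by more than counting error. The spread between mice, which may be larger, was not measured.

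**Figure D1:**
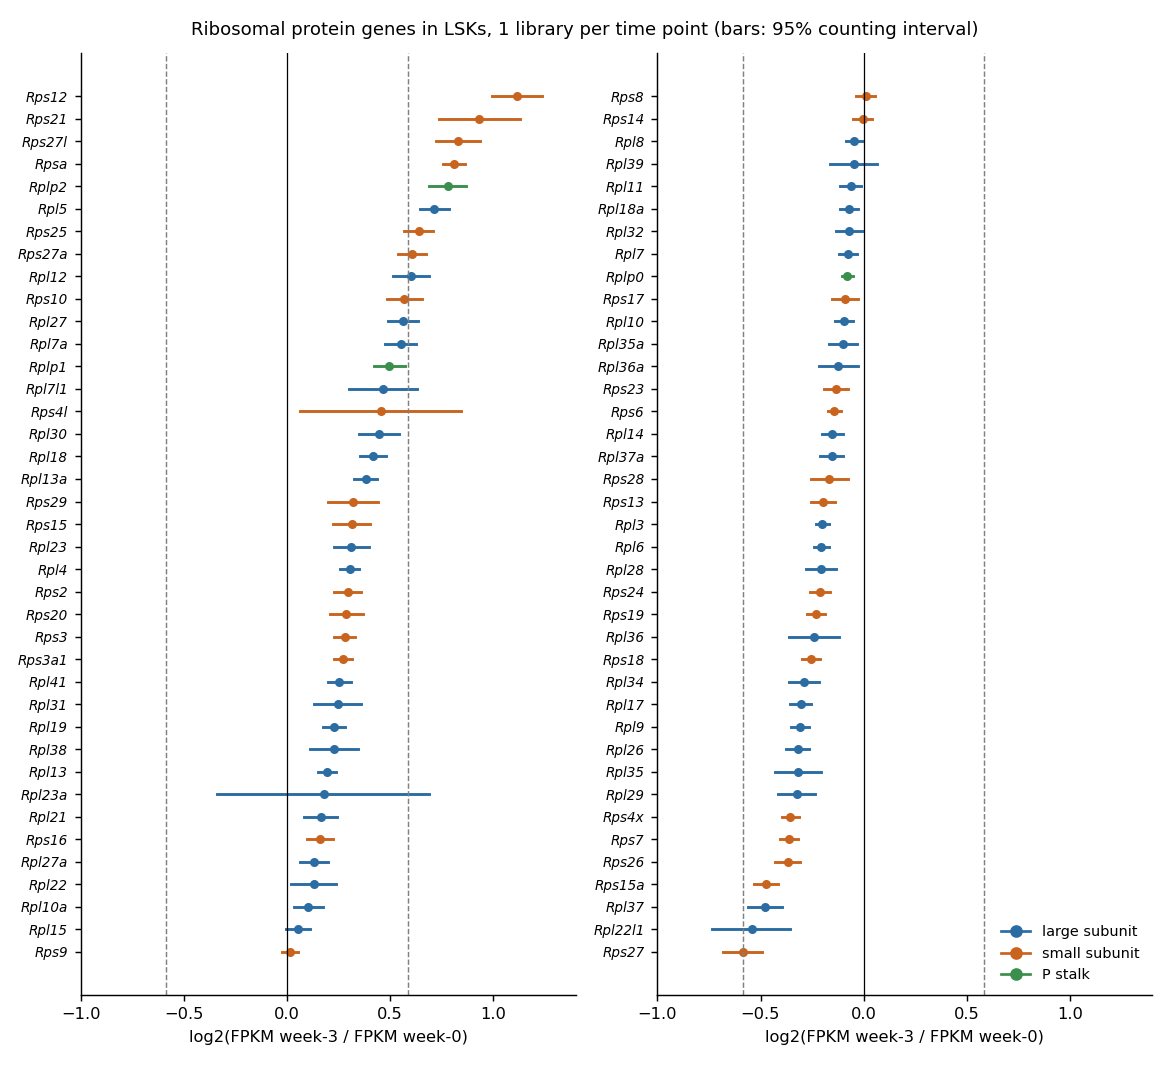
Log2 ratio of FPKM at week-3 over week-0 for 78 of the 80 members with at least 100 reads, ordered by size and split over 2 panels, with 95% counting intervals as bars and dashed lines at ratios of 1.5 and 1/1.5. Most points lie between the dashed lines, 9 lie above the upper line (Rps12 highest, 1.12) and Rps27 (-0.59) lies at the lower line.

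Mitochondrial ribosomal proteins, which build the separate ribosome of the mitochondrion, were used as the closest group for comparison. Their median log2 change was 0.59 over 76 genes, and 39 of them (51.3%) had a ratio of at least 1.5 and 0 a ratio of at most 1/1.5. Their summed share of reads was 0.473% at week-0 and 0.711% at week-3, a ratio of 1.502 (1.48 to 1.53). The 13 genes of the mitochondrial genome took 1.24% and 2.16% of the reads. With 1 library per time point, this difference between the groups could not be tested.

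**Figure D2:**
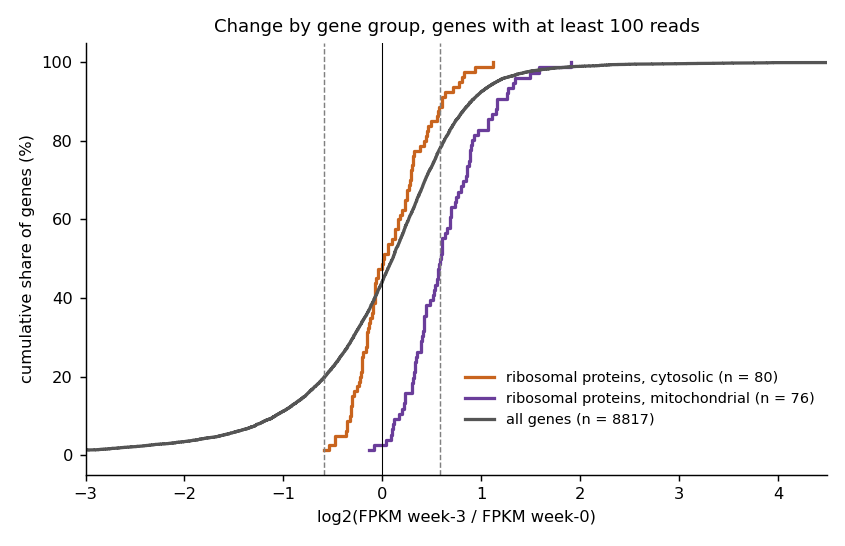
Cumulative share of genes (%) against the log2 ratio of FPKM at week-3 over week-0, for cytosolic members (n = 80), mitochondrial ribosomal protein genes (n = 76) and all genes with at least 100 reads and reads in both libraries (n = 8817), with dashed lines at ratios of 1.5 and 1/1.5. The cytosolic curve is steep around 0 (median 0.01) and the mitochondrial curve lies to its right (median 0.59).

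All 33 members of the small subunit passed the read limit, and 6 (18.2%) had a ratio of at least 1.5 and 1 (3.03%) of at most 1/1.5. Among the 44 of 48 members of the large subunit that passed, counted without the P stalk, 2 (4.55%) and 0 did. Over all genes these shares were 21.8% and 20%, so both subunits lay below them in both directions. The median log2 change was 0.01 for the small and -0.05 for the large subunit. The summed ratio was 0.984 (0.977 to 0.990) for the small and 0.995 (0.989 to 1.001) for the large subunit.

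Rps12, a protein of the small subunit's beak that in flies is needed for the competition between cells with unequal ribosomal protein dose, had the largest change. Its FPKM was 323 at week-0 (976 reads) and 699 at week-3 (1293 reads), a ratio of 2.17 (1.99 to 2.36). It was the only member whose ratio passed 2. The 167 week-3 reads on its identical copies Rps12-ps3 and RP23-181P23.2, beside 160 at week-0, are few beside its own.

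Rps21, a small protein of the 40S subunit, had 395 and 461 reads, with FPKM of 42.3 and 80.7, a log2 change of 0.93 (0.74 to 1.13). Rpsa, which is also known as the laminin receptor and sits near the mRNA exit, had 5426 and 5810 reads, with FPKM of 459 and 803, a log2 change of 0.81 (0.75 to 0.86). Rps25, needed for initiation at some internal ribosome entry sites, had 3162 and 3008 reads, with FPKM of 728 and 1133, a log2 change of 0.64 (0.57 to 0.71). All were higher at week-3 even where the number of reads was lower, since the week-3 library was smaller.

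Rps27a, whose product is made as a fusion with ubiquitin, had FPKM of 202 at week-0 and 308 at week-3, a log2 change of 0.61 (0.54 to 0.68). Fau, another ribosomal fusion gene, whose product carries a ubiquitin-like part and which falls outside the naming rule, had 9320 and 4750 reads and a log2 change of -0.26 (-0.31 to -0.21). These fusion genes thus lay on either side of 0.

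At the other end, the FPKM of Rps27 was 171 at week-0 (3139 reads) and 114 at week-3 (1278 reads), a log2 change of -0.59 (-0.68 to -0.49). The value lies just past the limit of 1/1.5, and its interval crosses it. Rps15a, also of the small subunit, had FPKM of 99.6 and 71.7, a log2 change of -0.47 (-0.53 to -0.41). Rps26, which contacts the mRNA just upstream of the start codon, had FPKM of 2443 and 1893, a log2 change of -0.37 (-0.43 to -0.31).

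Rps7, one of the 40S members that bind Mdm2, had FPKM of 2125 and 1655, a log2 change of -0.36 (-0.41 to -0.32). Rps4x, the X-linked form of the protein, had 16079 and 7687 reads, with FPKM of 1172 and 916, a log2 change of -0.36 (-0.39 to -0.32). Rps15a, Rps26, Rps7 and Rps4x were lower at week-3 by more than the counting error, and Rps27 alone passed the limit of 1/1.5 (with TMM scaling Rps15a did so too).

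In the large subunit, Rpl5, which carries 5S ribosomal RNA together with Rpl11, had 3328 and 3339 reads, with FPKM of 99.3 and 163, a log2 change of 0.71 (0.64 to 0.78). Rpl11 had 8324 and 4872 reads, with FPKM of 288 and 276, a log2 change of -0.06 (-0.11 to -0.01). Rpl23, a further binder of Mdm2, had FPKM of 145 and 180, a log2 change of 0.31 (0.23 to 0.40). The members that bind Mdm2 did not share a size of change. Of these 3 only Rpl5 (33.3%) had a ratio of at least 1.5, against 21.8% of all genes. A ratio of at most 1/1.5 was found for 0, against 20% of all genes. With 3 genes, these shares cannot be told apart from those of all genes.

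Rpl12, which forms the base of the stalk, had 2190 and 2031 reads, with FPKM of 47.9 and 72.7, a log2 change of 0.60 (0.51 to 0.69). Rpl37 had 3905 and 1715 reads, with FPKM of 709 and 509, a log2 change of -0.48 (-0.56 to -0.40). Rpl29 had FPKM of 357 and 285, a log2 change of -0.32 (-0.41 to -0.23). Reads of Rpl29 are uncertain, since rows of genes with a stretch near-identical to it together held 2554 and 1433 reads, beside its own 3027 and 1479. The largest of these rows was Uimc1, a gene with another function.

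The P stalk is the arm of the large subunit that recruits elongation factors, built from Rplp0 at its base and pairs of Rplp1 and Rplp2. Rplp0, the member with the most reads, had 33885 at week-0 and 19623 at week-3, a log2 change of -0.08 (-0.10 to -0.05). Rplp1 had 2959 and 2553 reads, a log2 change of 0.50 (0.42 to 0.57), and Rplp2 had 1951 and 2047 reads, a log2 change of 0.78 (0.69 to 0.87). The intervals of these 3 stalk genes do not overlap each other.

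Several members exist as a pair of paralogs. Such pairs are compared here by the share of the pair's reads that falls on the paralog, which does not depend on the scaling of the libraries. Of the 4539 reads of Rps27 and Rps27l at week-0, 30.8% (29.5 to 32.2) were on Rps27l, and of the 2798 at week-3, 54.3% (52.5 to 56.2) were. Rps27l, a target of p53 in other settings, had 1400 and 1520 reads, with FPKM of 116 and 206, a log2 change of 0.83 (0.72 to 0.93). The paralog therefore held the smaller part of the pair's reads at week-0 and the larger part at week-3.

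Rpl22 and Rpl22l1 moved the other way round. Rpl22l1, whose mRNA Rpl22 represses in other cells, held 31.4% (29.5 to 33.2) of the pair's 2478 reads at week-0 and 22.3% (20.2 to 24.5) of 1464 at week-3. Rpl22 had 1701 and 1138 reads, a log2 change of 0.13 (0.02 to 0.24), and Rpl22l1 had 777 and 326, a log2 change of -0.54 (-0.73 to -0.35). Their coding sequences were 67.5% identical in a global alignment.

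Rpl7l1 held 5.55% (5.14 to 5.98) of the reads of the pair with Rpl7 at week-0 and 7.88% (7.26 to 8.54) at week-3. It had 651 and 550 reads, a log2 change of 0.47 (0.30 to 0.63), while Rpl7 had 11074 and 6430, a log2 change of -0.07 (-0.12 to -0.03). Rps4l, which GENCODE M21 lists as a transcribed processed pseudogene, had 123 and 103 reads, or 0.759% (0.631 to 0.905) and 1.32% (1.08 to 1.601) of those of the pair with Rps4x. Rpl36al, the autosomal copy of the X-linked Rpl36a and outside the naming rule, held 38.5% (37.0 to 40.0) and 48.6% (46.7 to 50.5) of its pair.

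The remaining paralogs are known from other tissues and were at or near 0 here. Rpl3l, found in heart and skeletal muscle, had 23 and 9 reads, beside 23465 and 12477 of Rpl3. Rpl39l, known from testis, had 2 and 0 reads, and Rpl10l, which replaces the X-linked Rpl10 in male germ cells, had 0 in both libraries. For Rpl10l the share was bounded by 3 reads over the reads of its pair, not by the exact interval. A count of 0 then allows up to 0.0249% of the 12059 reads of its pair at week-0 and up to 0.0434% of 6907 at week-3. No change is given for these, and the 3 paralogs and Rpl24 are the 4 members under 100 reads.

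**Figure D3:**
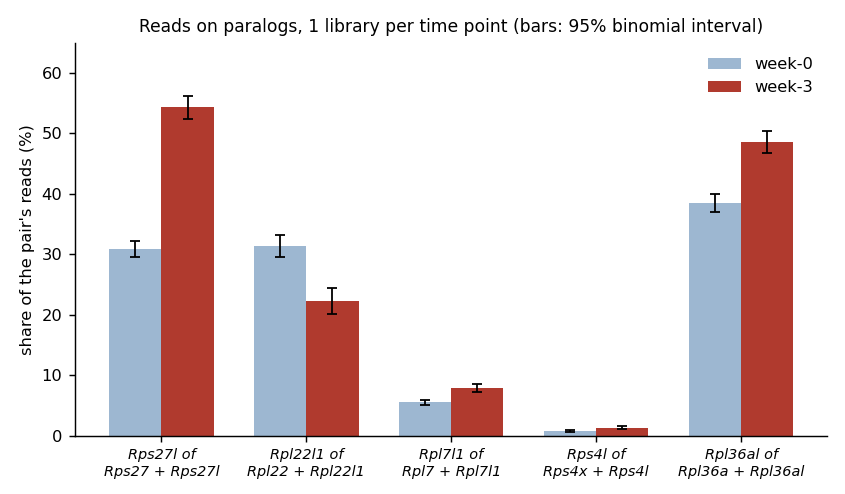
Share of a pair's reads (%) on the paralog at week-0 and week-3, with exact 95% binomial intervals for counting error, 1 library per bar. Rps27l went from 30.8% to 54.3% and Rpl22l1 from 31.4% to 22.3%, and Rpl36al, outside the naming rule, from 38.5% to 48.6%.

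Levels of different members can be compared only per length. The deposited FPKM does not serve for this, because the length behind it is not that of an mRNA. The length implied by the reads, the FPKM and the library total matched the sum of all distinct GENCODE exons, with overlaps counted again, within 1% for 49 of 82 members, and the merged exon length for 2 of 82. It was over 2 times the mRNA length for 54 of 79 members. For Rps15a it was 11869 bases beside an mRNA of 640 bases, and for Rps26 it was 447 beside 681. The ratio of a gene between the libraries does not depend on this length.

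**Figure D4:**
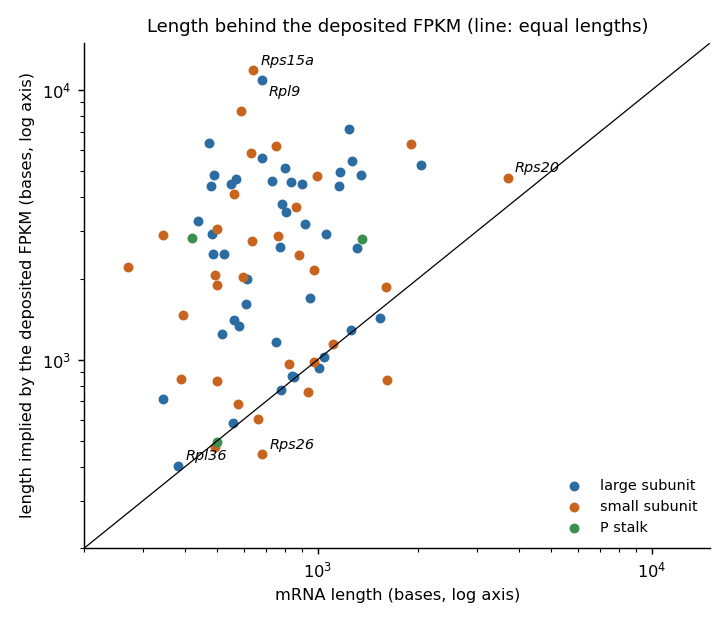
Length implied by the deposited FPKM against the length of the mRNA, both in bases on log axes, for 79 members, with a line where they are equal. Most points lie above the line, up to 18.5 times the mRNA length.

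By the deposited FPKM, 9 of the 10 highest members at week-0 were Rpl8 (2627), Rps26 (2443), Rps7 (2125), Rpl37a (2064), Rpl17 (2011), Rplp0 (1899), Rps24 (1835), Rps3a1 (1587) and Rps6 (1470). Of these, Rps26 and Rps7 were lower at week-3 as given above. At week-3 the FPKM was 2546 for Rpl8, 1854 for Rpl37a and 1628 for Rpl17. It was 1586 for Rps24, 1917 for Rps3a1 and 1333 for Rps6, and none of these members passed the limit in either direction. For comparison, the upper limit was passed by 21.8% and the lower limit by 20% of the whole background of 8832 genes. These members were picked by their week-0 FPKM, a value that also enters their ratio, so their count is not independent of the choice.

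Reads were therefore also divided by the length of the shortest complete mRNA with the main coding sequence in GENCODE M21 and by the library total, as reads per kilobase of mRNA and 1000000 reads of the library. On this scale Rps6, the phosphorylated protein that serves as a readout of mTOR signalling, was highest, with 4104 at week-0 and 3721 at week-3. Rplp0 followed with 3926 and 3718, and Rps18 with 3808. The median over 79 members was 956 at week-0 and 1251 at week-3. Spearman's rho between the deposited FPKM and this level at week-0 was 0.64 across these members, which are not independent replicates.

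A few members had far fewer reads than the rest. Rpl24 had 28 and 18 reads, and Rpl23a had 81 and 56, with levels of 22.8 and 25.7 on this scale. In GENCODE, 47.0% of the exon bases of Rpl24 are shared with exons of Gm28037 on the same strand, a row with 0 reads in both libraries. For Rpl23a, 59.7% are shared with Tlcd1 on the opposite strand, and its near-identical copy Rpl23a-ps3 had 148 and 101 reads, more than Rpl23a itself. How reads that match several places or genes were counted is not given in the sources used here, so the levels of these members are uncertain. The level of Rps20, 126 at week-0, rests on an mRNA of 3706 bases beside a coding sequence of 360 bases, and may be understated.

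The order of the members' levels was alike in both libraries, with a Spearman's rho of 0.96 across 79 members. The change differed with the level. Of the 26 members with the lowest mean level, 20 had a positive and 6 a negative log2 change, with a median of 0.26. A ratio of 1.5 was reached by 6 of these 26, a share near the 21.8% of all genes. Of the 26 with the highest mean level, 6 were positive and 20 negative, with a median of -0.15. Of these, 0 passed a limit in either direction, against 21.8% higher and 20% lower among all genes. With TMM scaling the lowest 26 kept 20 positive and the highest 26 had 3. The 27 members between them had a median of 0.05. Across the 79 members, Spearman's rho between the change and the mean log2 level was -0.44, a description of genes that share the same libraries. Across all 1951 genes with at least 1000 reads and reads in both libraries, rho between the change and the mean log2 share of reads was 0.13. For the coding length rho with the change was 0.07, for the mRNA length 0.03, and for the GC content of the coding sequence 0.08. The level rests on the mRNA length chosen. Of the 6 members past 1.5 among the lowest 26, Rpl5, Rpsa and Rpl12 have mRNAs of 2045, 1599 and 1242 bases. Their coding sequences have 894, 888 and 498 bases. For Rps12, Rps21 and Rps27l the mRNAs have 494, 394 and 499 bases and the coding sequences 399, 252 and 255. How far the difference with the level depends on these lengths was not tested.

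**Figure D5:**
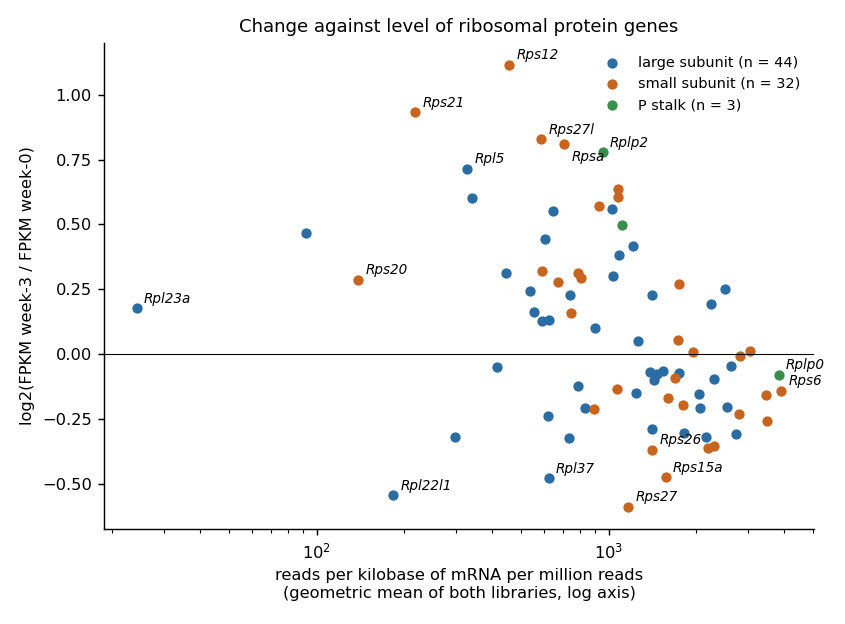
Log2 ratio of FPKM at week-3 over week-0 against reads per kilobase of mRNA and 1000000 reads (geometric mean of both libraries, log axis) for 79 members, coloured by subunit. The points slope down to the right: Rps12 (1.12) and Rps21 (0.93) lie above 0 at low levels, and Rplp0 (-0.08) and Rps6 (-0.14) just under 0 at the highest levels.

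Members whose human counterparts are mutated in Diamond-Blackfan anaemia were described as a list of 21, chosen from general knowledge. All passed the read limit, and 1 (Rpl5, 4.76% of the list) had a ratio of at least 1.5, against 21.8% of all genes. A ratio of at most 1/1.5 was found for 1 (Rps27), against 20% of all genes. The median log2 change was -0.09, beside 0.01 over all members. Their summed reads had a ratio of 0.947 (0.938 to 0.956). Rps19, the gene most often affected, had 12185 and 6358 reads, a log2 change of -0.23 (-0.27 to -0.18). Rpl3, which is not on this list and is also rich in reads, had a log2 change of -0.20.

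Other genes that serve the ribosome were taken from fixed lists. Of 20 translation factors and other genes whose mRNAs carry a TOP element, 4 (20%) had a ratio of at least 1.5 (Eef1b2, Eif4b, Nap1l1 and Npm1). A ratio of at most 1/1.5 was found for 2 (10%), Eef2 and Eif4a2, and the median log2 change was 0.25. Over all genes these shares were 21.8% and 20%. Eef1a1, the elongation factor that delivers aminoacyl-tRNA, had 23187 and 16789 reads, a log2 change of 0.24 (0.22 to 0.27). Eef2, the factor that moves the ribosome along the mRNA, had 16615 and 6152 reads, a log2 change of -0.72 (-0.77 to -0.68). The factors of elongation thus lay on both sides of 0.

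Gnb2l1 (Rack1), a scaffold protein bound to the small subunit and outside the naming rule, had 4237 and 4608 reads, a log2 change of 0.83 (0.77 to 0.89). Of 8 chaperones that escort single ribosomal proteins to the assembly site, 7 passed the read limit, with a median log2 change of 0.41. A ratio of at least 1.5 was reached by 2 (28.6%, Heatr3 and Pdcd2l), against 21.8% of all genes. A ratio of at most 1/1.5 was reached by 0, against 20% of all genes. Heatr3, which accompanies the Rpl5 and Rpl11 complex, had 153 and 193 reads, a log2 change of 1.04 (0.73 to 1.36). Aamp, the counterpart of the yeast chaperone of Rpl10, had 898 and 759 reads, a log2 change of 0.47 (0.33 to 0.61).

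Near-identical copies limit what the members' reads can show. A copy is a GENCODE gene of which a transcript has at least 90% identity over at least 80% of a member's coding sequence. By this rule it can also be a gene with another function, such as Uimc1. Of 84 members, 41 had such a copy among the rows of the tables, and 30 had a copy with at least 20 reads. Near-identical GENCODE genes that match no row of the tables were found for 77 members. Of the copies in the tables, Uimc1 had the most reads, 2007 and 1080, beside 3027 and 1479 on Rpl29. It was followed by Rpl10-ps3 with 1664 and 899 reads and Rpl10-ps1 with 1262 and 686, both identical to Rpl10 over its whole coding sequence, beside 12059 and 6907 on Rpl10 itself. Rps27rt, identical to the coding sequence of Rps27, had 75 and 29 reads. Over all genes with at least 100 reads, 21.8% had a ratio of at least 1.5 and 20% of at most 1/1.5. With the reads of pseudogene copies added, 8 of 80 members had a ratio of at least 1.5 and 1 of at most 1/1.5. Among the 50 members without a copy of at least 20 reads in the tables, 45 of which have a copy that matches no row, 6 and 0 did, and the median log2 change was 0.12. This alternative was chosen after the data were seen.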

How the data were processed

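RNA of sorted bone marrow LSKs was sequenced for week-0 and week-3, with 1 library each from 3 mice mixed together. The authors prepared SMARTer cDNA, sequenced both ends of the fragments, and mapped the trimmed reads with TopHat2 2.0.9 to GRCm38 (mm10). The counting tool, the annotation release and the treatment of reads with several matches are not given in the sources used here. The deposited tables give each gene counts (whole reads, not normalized) and FPKM, scaled by an exon length and by the total reads of the library.

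The tables were joined by gene identifier. Changes are log2 ratios of FPKM without a pseudocount, for genes with at least 100 reads over both libraries. A ratio of at least 1.5 or at most 1/1.5 was counted, with no test, since 1 library per time point leaves no replicate. Intervals at 95% are exact Clopper-Pearson intervals, other than the bound for a count of 0 in a paralog pair. The floor of 3 reads is 0.472 reads in 1000000 at week-0 and 0.772 at week-3. Alternatives used TMM (edgeR 4.0.16) and median-of-ratios (DESeq2 1.42.0) factors in R 4.3.3. Coding sequences and exons come from GENCODE M21 and promoter windows from RefSeq. Of the members, 59 of 84 have the same coordinates in GENCODE M21 as in the tables. Copies were searched with blastn 2.17.0. Python 3.11.15, scipy 1.17.1 and biopython 1.88 were used.

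The procedure was tested on simulated counts of 8832 genes of this comparison, drawn as independent reads (Poisson), which the interval also assumes. A share near 95% was therefore fixed in advance. The numbers below give no error rate for the real libraries, whose reads are not independent molecules and whose spread between mice is unknown. The true ratio lay in the interval for 95.3% of genes, 99 of 100 genes raised 2 times and 97 of 100 lowered as much were counted, and 15 and 26 of 8632 unchanged genes were counted as higher and lower.

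The members and lists were chosen with earlier results of these data known. Named members are the 10 with the highest FPKM at week-0, the 8 largest and 8 smallest log2 changes, paralogs and their parents, the P stalk and members under 100 reads. Beside these are Fau and up to 4 genes with the most reads of each other list. Rps18, Gnb2l1, Rpl36al and the other genes named outside this rule were chosen after their values were seen. Some single-gene results under this rule are not reported here.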

Additional observations from a re-analysis of the deposited data

How the results depend on the processing

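No paired analysis was possible because each time point has 1 library, and for the same reason no library could be left out. A ratio of at least 1.5 was reached by 9 of 80 members. This number stayed between 6 and 9 under other scalings, read limits, a pseudocount and the handling of copies. The members counted were not always 80. They were 82 with at least 20 reads, 77 with at least 1000, and 50 without members that have a near-identical row with reads. Of these 50, 6 reached the ratio. With a limit of 2 the number was 1 of 80 (7.51% of all genes). With a limit of 5/4 it was 18, or 22.5% of members (36.8% of all genes). The number with a ratio of at most the inverse limit, which was 1, was 4 with TMM, 2 with median-of-ratios scaling, 2 with at least 20 reads and 2 without a read limit. It was 0 with a pseudocount of 1 FPKM, 0 with a limit of 2 (11.4% of all genes), 8 with a limit of 4/5 (28.9% of all genes) and 0 among members without a near-identical row with reads, where Rps27 itself is left out. The background with TMM was 16.7% higher and 23.4% lower.

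The median log2 change of members was 0.01, and it was -0.10 with TMM, -0.078 with median-of-ratios scaling and 0.12 among members without a near-identical row with reads. The median of all genes was 0.10, -0.01 with TMM and 0.02 with median-of-ratios scaling, a shift of -0.11 and -0.09 that all genes share by construction. The share of reads on members, 8.51% at week-0 and 8.44% at week-3, was 8.62% and 8.63% without the mitochondrial genome in the total, and 9.495% and 9.56% without the 10 other genes with the most reads. With -ps rows added it was 8.59% and 8.52%. Which library had the larger share thus depends on the total. Of 32 named members, 1 changed sign with TMM and with median-of-ratios scaling, and 0 did with the other alternatives. The log2 change left its own counting interval for 26 of the 32 with TMM and for 21 with median-of-ratios scaling, and for 0 with the others. The intervals printed for single members thus do not cover the choice of scaling. Depth limits the members under 100 reads most, and the spread between mice, which no setting here can show, limits all of them.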

Other observations

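Sequences near-identical to members also lie inside transcripts of genes with other functions. A transcript of Ciapin1 in GENCODE M21 carries a stretch 96.3% identical to the whole coding sequence of Rpl7a, and the Ciapin1 row held 413 and 579 reads at the 2 time points, a log2 change of 1.20 (1.01 to 1.38). Rpl7a had 3097 and 2775 reads, a log2 change of 0.55 (0.48 to 0.63). A transcript of Med21 carries a stretch 97.4% identical to the coding sequence of Rps26, and Med21 had 304 and 430 reads, while Rps26 had a log2 change of -0.37. A transcript of Uimc1 carries 86.1% of the coding sequence of Rpl29 at 99.8% identity, and Uimc1 had 2007 and 1080 reads. Whether reads of the ribosomal protein genes were counted on these rows was not tested.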
